A study of Drosophila melanogaster with 13 samples.

Results

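The transcripts described here are probe sets that carry no gene symbol, or only a CG number, and that stood highest in heads of Su(var)3-9 mutant flies. A CG number is the running number that the fly genome annotation gives to a predicted gene that nobody has yet named. On an Affymetrix expression array each transcript is read by several short probes, and their joint reading is a probe set. Members were selected on the measured values: the lowest of the 3 Su(var)3-9 arrays had to lie at least 0.5 log2 above the highest of the other 9 arrays. This distance is called the gap below. CG3397 and CG40485 were left out, and neither reached the gap. The rule found 57 of 10385 probe sets of these annotation classes, or 0.549%, and 100 of all 18769 probe sets, or 0.533%. The 57 members were 30 probe sets with no symbol and 27 probe sets of 27 CG genes.

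RNA came from heads of adult Drosophila melanogaster, raised at 25 °C and 70% humidity and extracted with Trizol. The 4 genotypes all carried the yw background and the CyO balancer, a rearranged second chromosome with its own dominant marker. The control was yw; +/CyO and the egg mutant was yw; egg235/CyO, so egg235 was present over the balancer. The Su(var)3-9 mutant was yw; +/CyO; Su(var)3-906, and the double mutant carried egg235/CyO together with Su(var)3-906. The labels used here give neither the number of Su(var)3-906 copies, nor the sex, nor the age of the flies in days. Each genotype had 3 biological replicates with values, and the array medians lay between 5.71 and 6.14 on the log2 scale. Markers of several tissues also differed between these groups, with values given further on.

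Su(var)3-9 and egg encode histone methyltransferases that place methyl groups on lysine 9 of histone H3. This mark is bound by the heterochromatin protein HP1 and is found over the repeat-rich chromatin around centromeres. In flies Su(var)3-9 is known for that pericentric chromatin, and egg for the small chromosome 4 and for the germ line. Both are known as modifiers of position effect variegation, the patchy silencing of a gene placed near heterochromatin. The Su(var)3-9 and egg transcripts themselves were not analysed here, since no probe set was named for either.

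The name "high only in Su(var)3-9" held as the rule defines it, but for many members the other groups were not level with each other. The highest of the 9 other arrays was a double mutant array for 39 members, an egg array for 10 and a control array for 8. How often each group held it over all probe sets was not counted. The median of the members' Su(var)3-9 means stood 1.59 log2 above control, 1.73 above the egg mutant and 1.23 above the double mutant. The medians of the same differences over all probe sets were 0.21, 0.06 and 0.01. These differences describe how the members were chosen and were not tested. The median gap was 0.87, with 24 members at a gap of 1 or more and 6 at 2 or more. Probe sets without a symbol made up 19 of those 24 and 5 of those 6.

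The widest gap belonged to the unnamed probe set 1626205_s_at. It read 12.38, 12.48 and 12.19 in the 3 Su(var)3-9 arrays. The control arrays read 5.62, 5.74 and 5.49, the egg arrays 6.59, 6.51 and 6.56, and the double mutant arrays 6.17, 5.81 and 6.34. Its gap of 5.61 separated a bright signal in 1 genotype from values near the array median in the other 3. The Su(var)3-9 mean exceeded the control mean by 6.74 log2 and the double mutant mean by 6.25, although the double mutant carries the same Su(var)3-906 allele.

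The next was 1634633_s_at, with 13.45, 13.47 and 13.36 in the Su(var)3-9 arrays and a gap of 4.47. It read 8.05, 7.79 and 7.83 in control, 8.69, 8.86 and 8.88 in the egg mutant, and 8.82, 8.81 and 8.75 in the double mutant. This probe set was thus already well above the array median elsewhere, and its Su(var)3-9 mean of 13.42 was the highest of any member. For 1626130_s_at the Su(var)3-9 arrays read 7.75, 7.62 and 7.63, while the other 9 arrays ran from 4.21 to 4.72. For 1641245_a_at they read 8.60, 8.38 and 8.64, against 4.75 to 4.93 in control, 5.34 to 5.51 in the egg mutant and 5.11 to 5.31 in the double mutant. For 1623960_s_at they read 8.25, 8.11 and 8.41, with the other 9 arrays between 5.27 and 5.68. In these 5 probe sets the double mutant lay close to the egg mutant and to the control, and far from the Su(var)3-9 mutant.

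**Figure D1:**
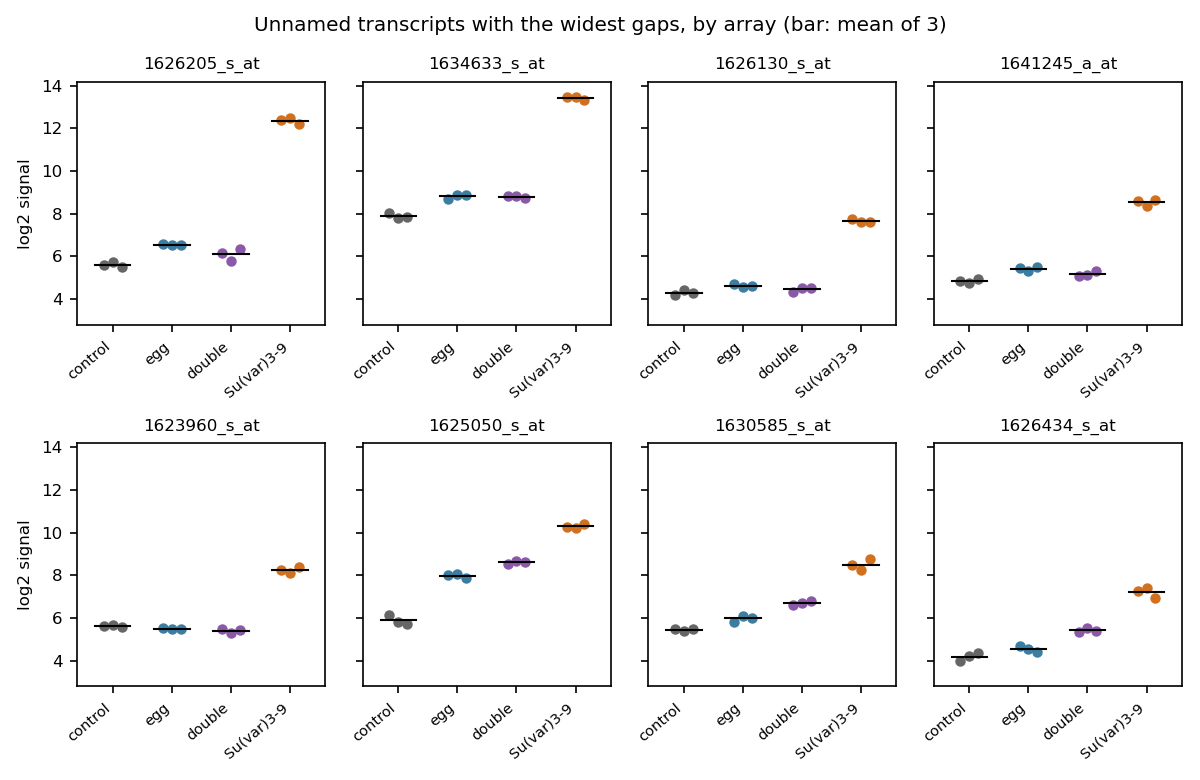
Log2 signal of the 8 unnamed members with the widest gaps, in a panel each, with 1 point per array, arrays grouped by genotype and a bar at the mean of 3. The Su(var)3-9 arrays are highest in each panel by construction, and 1626205_s_at stands at 12.19 or above there and at 6.59 or below in the other 9 arrays.

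Other unnamed members had a raised double mutant as well. For 1625050_s_at the control arrays read 6.14, 5.83 and 5.72, the egg arrays 7.88 to 8.06, the double mutant arrays 8.54, 8.68 and 8.62, and the Su(var)3-9 arrays 10.26, 10.23 and 10.39. The 4 groups formed separate steps with no overlap between any of them. For 1630585_s_at the same order ran from a mean of 5.46 in control, through arrays at 5.83 to 6.10 and 6.59 to 6.79, to 8.24 to 8.76. For 1626434_s_at it ran from 3.97 to 4.37, through 4.43 to 4.67 and 5.35 to 5.52, to 6.95 to 7.40. The widest distance between control and double mutant among the members was in 1631349_s_at, with a gap of 0.88. It read 5.05, 5.21 and 4.98 in control, 7.32, 7.39 and 7.19 in the egg mutant, 8.42, 8.59 and 8.71 in the double mutant, and 9.73, 9.58 and 9.65 in the Su(var)3-9 mutant. The member closest to the threshold, 1637055_s_at with a gap of 0.52, showed the same order, with group means of 7.33, 8.48, 9.93 and 10.72.

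Some unnamed members had control, and not the double mutant, as the nearest group, among them 1630728_a_at and 1626133_s_at. For 1630728_a_at the control arrays read 6.29, 6.60 and 6.50, whereas the egg arrays lay between 4.39 and 4.55 and the double mutant arrays between 4.37 and 4.59. Its Su(var)3-9 arrays read 7.99, 7.67 and 7.73, so the mean was 1.33 log2 above control and 3.31 above the double mutant. For 1626133_s_at the means were 7.61 in control, 6.47 in the egg mutant, 6.83 in the double mutant and 9.02 in the Su(var)3-9 mutant. In both probe sets every array of the egg and double mutants lay below every control array.

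Bright transcripts occurred too. The probe set 1624819_s_at read 11.49, 11.80 and 11.34 in the Su(var)3-9 arrays and between 9.04 and 9.93 elsewhere. The probe set 1624543_s_at read 12.16, 12.21 and 12.27 against 10.01 to 10.87 elsewhere. At the other end, 1625132_s_at and 1641421_s_at had Su(var)3-9 means of 5.65 and 5.38, and means of 4.02 and 3.83 in control. The remaining unnamed probe sets among the 20 widest gaps, 1641210_s_at, 1635074_s_at and 1634837_at, had Su(var)3-9 means of 6.94, 6.84 and 5.81. Over all 57 members the Su(var)3-9 mean ran from 4.66 to 13.42 and exceeded 10 in 15. The mean of the other 9 arrays was below 5 in 22 members and below the median over all probe sets, 5.95, in 27. At such low levels an array signal can be largely background, and no detection calls were used here.

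The names of the unnamed members had a common feature. Of the 30, 19 (63.3%) ended in _s_at, the Affymetrix suffix for a probe set whose probes match several transcripts, and 489 of all 4721 unnamed probe sets (10.4%) did so. The plain suffix _at was carried by 9 (30%), against 85.3% of all unnamed probe sets, and _a_at by 2 (6.67%), against 3.13%. None of the 27 CG members ended in _s_at, 23 ended in _at and 4 in _a_at. For a probe set of shared probes, the level cannot be assigned to a single transcript. No sequence of these probes was used here.

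Among the CG genes the widest gap, 2.02, was that of CG9616. It read 4.29, 4.39 and 4.24 in control, 4.80, 4.89 and 5.06 in the egg mutant, 5.29, 5.40 and 5.37 in the double mutant, and 7.45, 7.42 and 7.57 in the Su(var)3-9 mutant. CG8100 was flat in control and egg arrays, between 3.65 and 3.85. It read 4.08, 4.79 and 4.38 in the double mutant and 6.32, 6.51 and 6.53 in the Su(var)3-9 mutant. CG31606 had means of 4.38, 5.18, 5.66 and 6.93 in the same order of groups, and a gap of 1.05. For all 3 genes the double mutant was the second highest group. CG34227 was bright everywhere: 11.20, 11.30 and 11.26 in control, 9.99, 10.59 and 10.24 in the egg mutant, 11.31, 11.47 and 11.17 in the double mutant, and 12.84, 12.95 and 12.82 in the Su(var)3-9 mutant. Its control and double mutant arrays overlapped, and its egg arrays were the lowest.

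**Figure D2:**
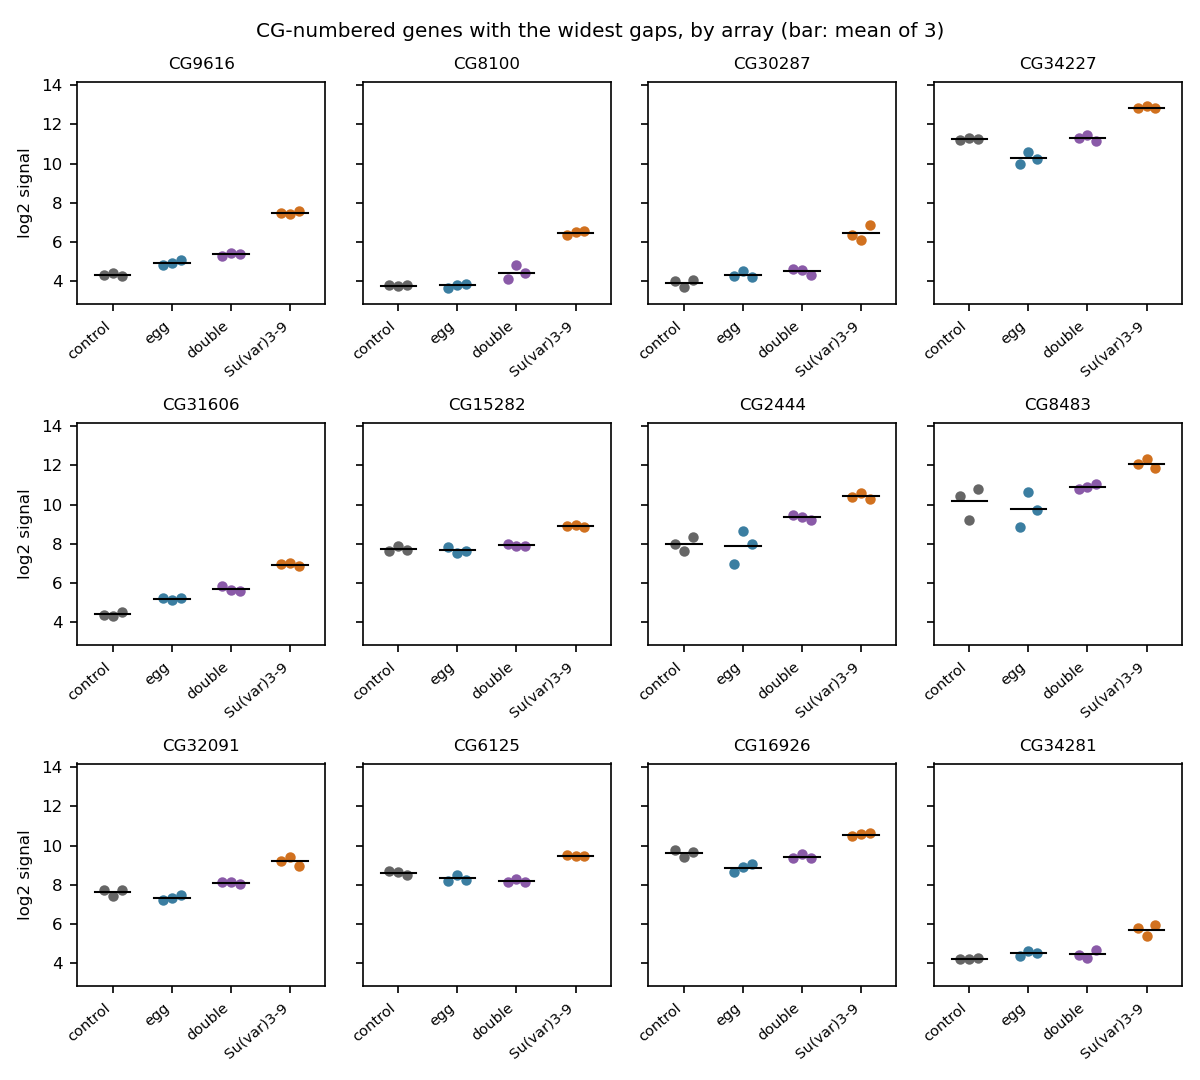
Log2 signal of the 12 CG genes with the widest gaps, in a panel each, with 1 point per array, arrays grouped by genotype and a bar at the mean of 3. CG34227 and CG8483 are bright in every group, while CG8100, CG30287 and CG9616 lie below 5.5 in the 9 other arrays and above 6 in the Su(var)3-9 arrays.

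Several CG members belong to known protein families. CG30287 and CG14642 are of the serine protease family, the enzymes that cleave proteins in digestion and immune cascades. CG30287 read 3.98, 3.70 and 4.03 in control, 4.23, 4.49 and 4.19 in the egg mutant, 4.61, 4.56 and 4.29 in the double mutant, and 6.36, 6.09 and 6.84 in the Su(var)3-9 mutant. CG14642 moved over a smaller range, with 6.43 to 6.66 in the other 9 arrays and 7.45, 7.24 and 7.33 in the Su(var)3-9 arrays. Its other probe set read 4.36 in control and 4.43 in the Su(var)3-9 mutant on average, so the 2 probe sets of this gene differed.

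CG1791 and CG1889 lie next to each other on the X chromosome. CG1791, a fibrinogen-related protein, belongs to a family of secreted proteins with a fibrinogen-like domain. CG1791 read 6.58, 6.75 and 6.69 in control, 7.19, 7.16 and 7.30 in the egg mutant, 7.75, 8.03 and 7.82 in the double mutant, and 8.79, 8.75 and 8.69 in the Su(var)3-9 mutant. CG1889 had means of 7.50 and 7.57 in the control and egg groups, 8.23 in the double mutant and 8.88 in the Su(var)3-9 mutant. Both genes thus had the double mutant in second place, with no overlap between it and the lower groups.

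CG7763 and CG4115 are of the C-type lectin family, proteins with a domain that often binds sugars. CG7763 read 4.58, 4.74 and 4.56 in control, 3.88, 3.87 and 3.86 in the egg mutant, 4.93, 5.50 and 5.03 in the double mutant, and 6.54, 6.55 and 6.19 in the Su(var)3-9 mutant. CG4115 read 8.60, 7.89 and 8.78 in control, 7.73, 8.24 and 7.96 in the egg mutant, 8.80, 8.76 and 8.82 in the double mutant, and 9.52, 9.74 and 9.45 in the Su(var)3-9 mutant. The egg mutant was the lowest group on average for both lectins, and for CG4115 its range overlapped that of control. CG6125, of the sulphate and anion transporter family, differed in that control came second. It read 8.68, 8.63 and 8.52 in control and 9.51, 9.47 and 9.48 in the Su(var)3-9 mutant, with means of 8.32 in the egg mutant and 8.18 in the double mutant. CG3301, a short-chain dehydrogenase by family, was dim in its member probe set, with means of 3.84 in control and 5.05 in the Su(var)3-9 mutant. Its other probe sets were brighter and did not share the pattern: the brighter one averaged 9.25 in control, 9.54 in Su(var)3-9 mutants and 9.48 in double mutants.

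**Figure D3:**
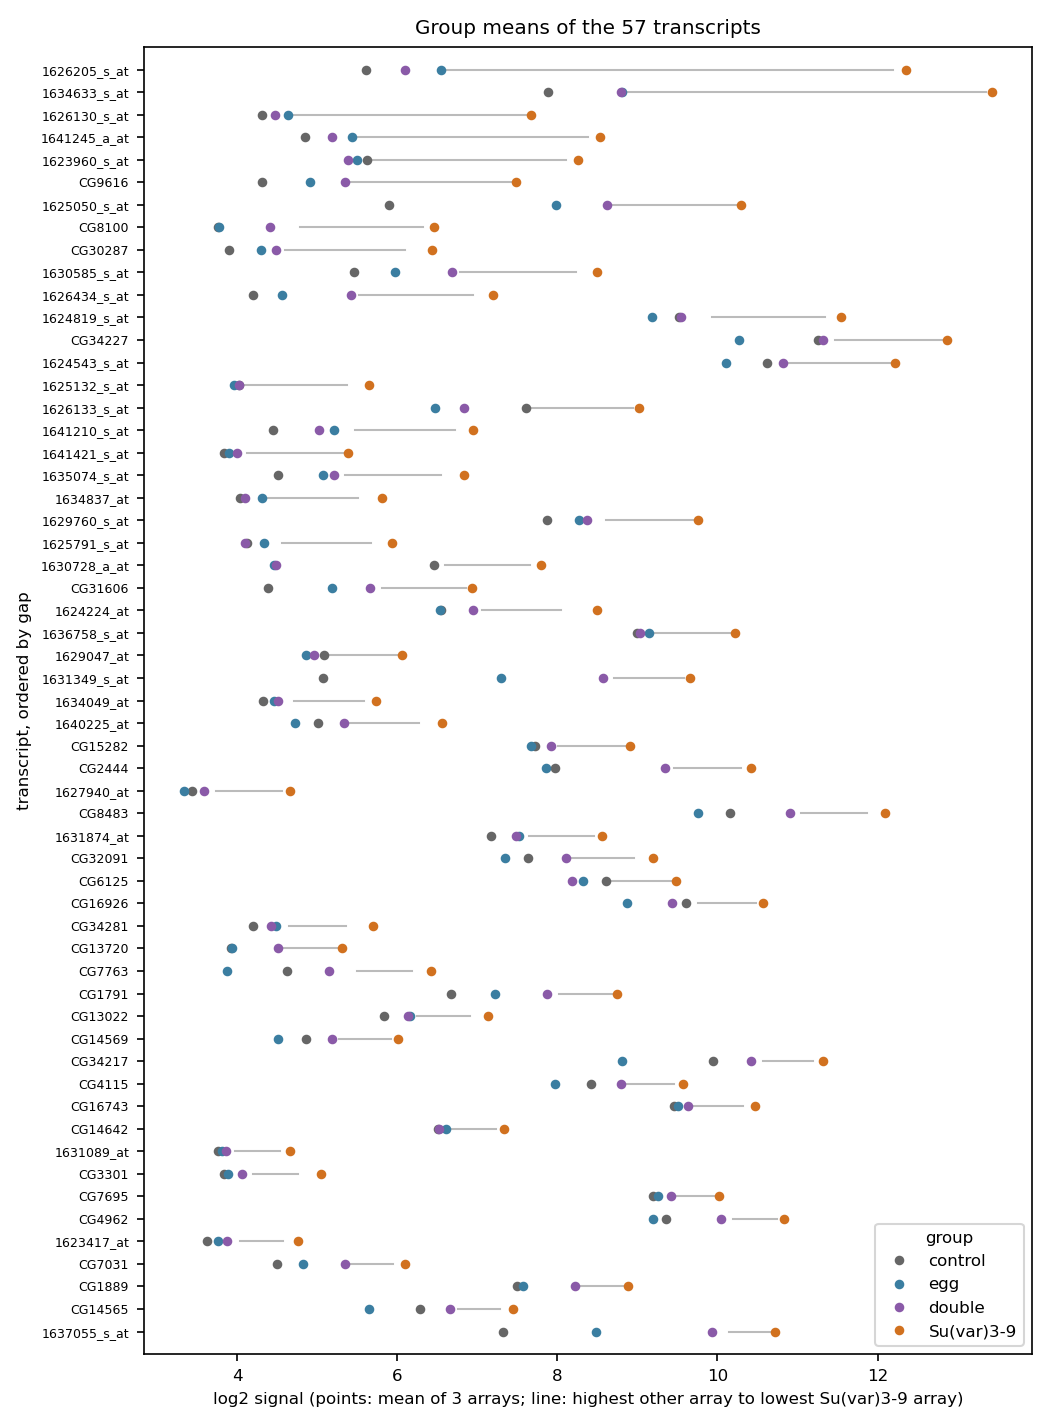
Mean log2 signal (horizontal axis) of each of the 57 members in the 4 genotypes, 3 arrays each, ordered by gap, with a grey line from the highest other array to the lowest Su(var)3-9 array. The Su(var)3-9 mean is the highest for each member by the rule, and the double mutant mean is often the next highest, as for CG9616 at 5.35 and 1631349_s_at at 8.57.

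The other 3 genotypes were compared with each other by limma, which fits every probe set in 1 linear model and shares information on the spread between probe sets. The means compared hold no Su(var)3-9 arrays, but these arrays did enter the shared estimate of spread. The rule also capped the highest of the 9 arrays compared. A call is an adjusted p below 0.05 over all 18769 probe sets, and the comparisons share groups, so they are not independent of each other. In the double mutant against the egg mutant, which differ in Su(var)3-906 alone by their labels, 25 members (43.9%) rose and 1 (1.75%) fell. Over all probe sets 7.91% were higher and 7.62% lower. The members' median change was 0.25 log2 and that of all probe sets 0.03. The CG genes accounted for 17 of the 25, out of 27, and the unnamed probe sets for 8 of 30. The share called among all probe sets of each class was not counted, so this split only describes the members.

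CG34217 had the largest rise in the double mutant over the egg mutant, 1.61 ± 0.39 log2 (SE; limma adjusted p 0.0138), and it rested on uneven arrays. Without the first double mutant replicate its adjusted p was 0.0525. CG2444 rose by 1.48 ± 0.31 (limma adjusted p 0.00614) and 1637055_s_at by 1.45 ± 0.13 (limma adjusted p 1.54e-05). The lectin CG7763 rose by 1.28 ± 0.14 (limma adjusted p 6.07e-05), and 1631349_s_at by 1.27 ± 0.09. CG34227 rose by 1.04 ± 0.13, and CG14565 by 1.01 ± 0.25. The CG14565 call was lost without the first egg replicate (limma adjusted p 0.0637) or the first double mutant replicate (0.057). The remaining rises among the 10 largest were 1626434_s_at at 0.87, CG4962 at 0.85 and CG4115 at 0.82. The CG4115 call was lost without the first egg replicate (limma adjusted p 0.0571). The neighbours CG1791 and CG1889 rose by 0.65 and 0.66. The 1 member that fell was the one with the widest gap, 1626205_s_at, at -0.45 log2 (limma adjusted p 0.0279). This call was lost with replicate number as a block (0.0557) and without any 1 egg array or the first or second double mutant array (0.0567 to 0.0873), and with each array centred on its median (0.104).

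Against control, 26 members (45.6%) were higher in the double mutant and 4 (7.02%) lower, where all probe sets gave 40.4% and 17.3%. The share of higher members was thus near that of all probe sets. The members' median change was 0.33 log2, against 0.18 for all probe sets. The rise was 3.49 ± 0.09 log2 for 1631349_s_at (limma adjusted p 4.53e-10), 2.72 ± 0.10 for 1625050_s_at and 2.60 ± 0.13 for 1637055_s_at. CG2444 rose by 1.37 ± 0.31, CG31606 by 1.28 ± 0.08, 1626434_s_at and 1630585_s_at by 1.23 each, CG1791 by 1.20 ± 0.08 and CG9616 by 1.05 ± 0.08. The 4 that fell were 1630728_a_at at -1.97 log2, 1626133_s_at at -0.78, CG6125 at -0.42 and 1623960_s_at at -0.23. The last call was lost without the second double mutant replicate (limma adjusted p 0.125) and in 3 other leave-outs, and its change turned to 0.12 when each array was centred on its median. With that centring CG6125 also lost its call, at -0.07 log2 (limma adjusted p 0.497).

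In the egg mutant against control, 17 members (29.8%) were higher and 9 (15.8%) lower, with 32.0% and 18.9% over all probe sets. Both shares were near the background, and the median change, 0.06 log2, was close to the 0.09 of all probe sets. The largest rises were again in 1631349_s_at, by 2.22 ± 0.09, 1625050_s_at, by 2.08 ± 0.10, and 1637055_s_at, by 1.15 ± 0.13. The 2 members with the widest gaps also rose, 1626205_s_at by 0.94 ± 0.12 and 1634633_s_at by 0.92 ± 0.09 (limma adjusted p 3.95e-05 and 2.12e-06). The falls were 1630728_a_at at -1.999, 1626133_s_at at -1.14, CG34217 at -1.13, CG34227 at -0.98, CG7763 at -0.75, CG16926 at -0.74, CG14565 at -0.64, 1624543_s_at at -0.51 and CG6125 at -0.29. The call for CG34217 was lost without the first or the third control replicate (limma adjusted p 0.0556 and 0.127), or the first egg replicate (0.105), which moved its value to -0.60. The call for CG14565 was lost without any array but the second control and second egg replicates, down to -0.38 without the first egg replicate. That for CG6125 was lost without the first control, first egg or the third egg replicate (limma adjusted p 0.0597, 0.0786 and 0.0656). Centring each array on its median also ended the calls of CG34217, CG14565 and CG6125, at -0.91, -0.41 and -0.07 (limma adjusted p 0.0515, 0.151 and 0.535).

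Read together, the 3 comparisons split the members into kinds. How often each kind occurs over all probe sets was not counted, so the counts only describe the members. Of all 18769 probe sets, 9550 were called in the egg mutant against control. In the double mutant 10827 were called against control and 2915 against the egg mutant. In 19 members none of the 3 was called. These included CG15282, CG16743, CG34281 and CG14642, and the unnamed 1625132_s_at, 1641421_s_at and 1636758_s_at. In 9 members all 3 were higher, so that control, egg mutant, double mutant and Su(var)3-9 mutant followed each other in level: 1625050_s_at, 1630585_s_at, 1626434_s_at, 1631349_s_at, 1637055_s_at, CG9616, CG31606, CG1791 and CG7031. Of these, the egg call of 1626434_s_at was lost without the first control, first egg or second egg replicate (limma adjusted p up to 0.135), and that of CG7031 without the first control, first egg or the third egg replicate (up to 0.0765). With cyclic loess between arrays the egg calls of 1630585_s_at, 1626434_s_at and CG7031 were lost as well, at 0.22, 0.20 and 0.17 log2 (limma adjusted p 0.194, 0.223 and 0.166). In 6 the egg and double mutants both exceeded control with no call between them, 1634633_s_at and 1641245_a_at among them. The double mutant call of 1641245_a_at was lost with cyclic loess (0.03 log2, limma adjusted p 0.818). So were those of 1641210_s_at, 1629760_s_at and 1631874_at (limma adjusted p 0.157, 0.36 and 0.899). The egg calls of 1629760_s_at and 1631874_at were lost with it too (limma adjusted p 0.771 and 0.952), and also with some single arrays left out. In another 6 the double mutant alone exceeded the other 2 groups, as for CG8100, CG2444, CG4962 and CG1889. CG34227, CG16926, CG34217 and CG14565 were lower in the egg mutant than in control and higher in the double mutant than in the egg mutant.

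**Figure D4:**
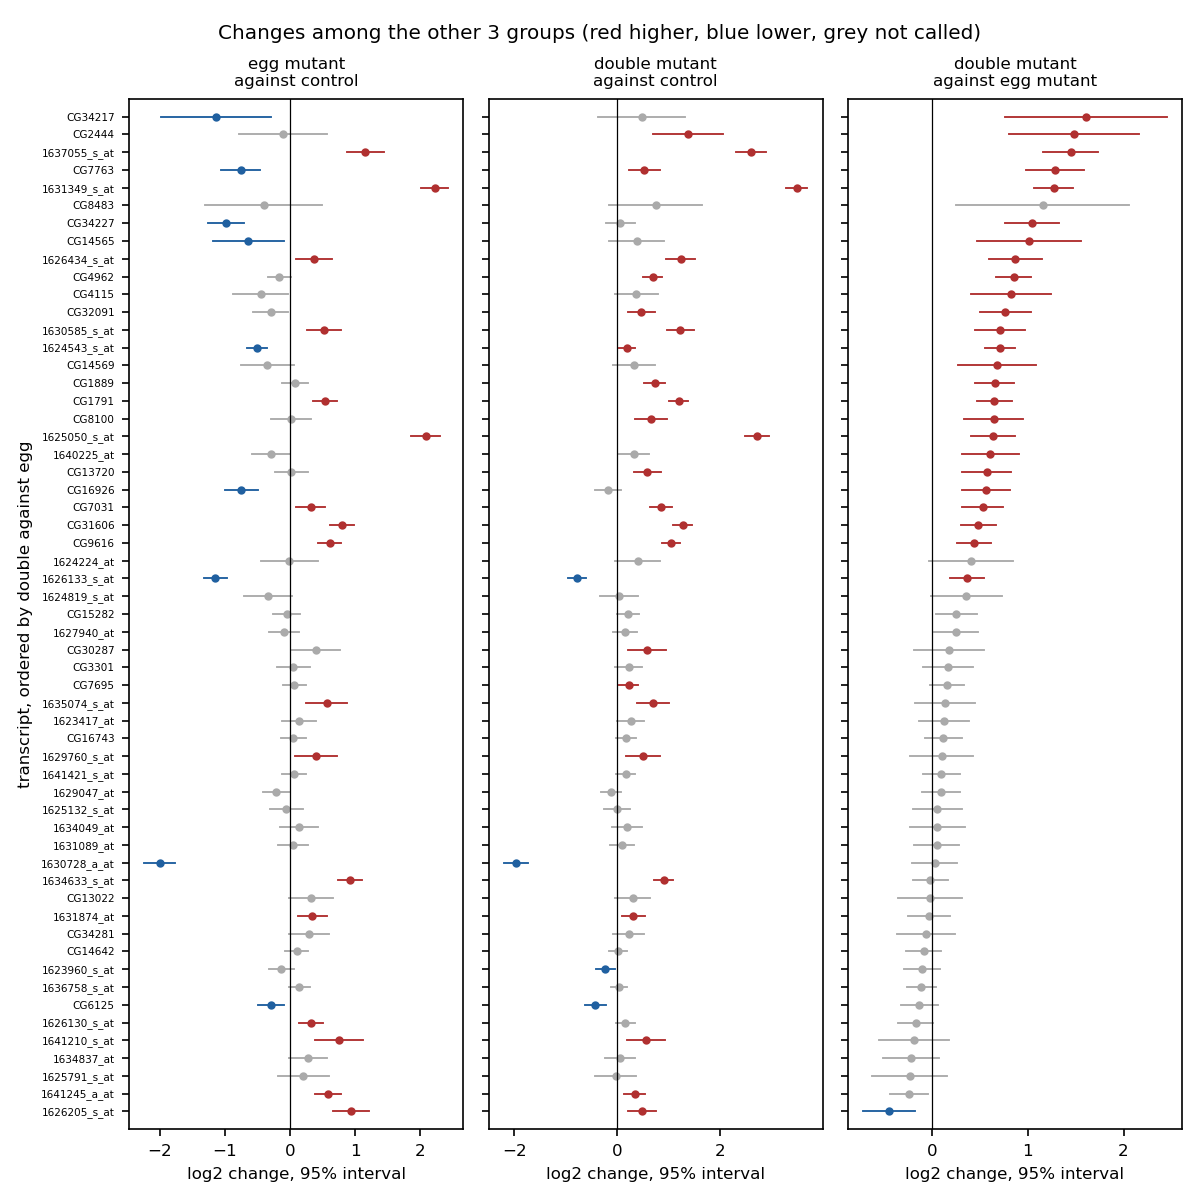
Log2 change of each member with its 95% interval from limma, in a panel for each of the 3 comparisons among the other groups (red: called higher, blue: called lower, grey: not called). Most called members lie to the higher side in the double mutant against the egg mutant (25 higher and 1 lower of 57), while in the egg mutant against control 17 are higher and 9 lower.

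Replicates of the egg mutant, and less so of control, were uneven in 4 members, which were picked after their values had been seen. CG2444, CG8483, CG34217 and CG14565 had a range over 1 log2 among the 3 egg arrays, as did 92 of all 18769 probe sets. CG8483, of the CAP family of secreted proteins, read 8.88, 10.66 and 9.73 in the egg mutant and 10.46, 9.23 and 10.78 in control. Its double mutant arrays, 10.81, 10.88 and 11.05, and its Su(var)3-9 arrays, 12.09, 12.34 and 11.87, lay closer together. CG2444 read 6.98, 8.64 and 7.98 in the egg mutant, and CG34217 read 7.74, 9.68 and 9.00. The range among the control arrays was 1.55 log2 for CG8483, 1.16 for CG34217, 0.95 for CG14565 and 0.69 for CG2444. Control replicate 2 was the lowest of its group and control replicate 3 the highest in each of these genes. In all 4 genes the first egg replicate was the lowest of its group and the second the highest. That first egg replicate also stood apart in the median of the ovary marker list, at 6.34 against 4.41 and 4.81 in the other two egg arrays. The control medians of that list lay closer together, from 4.51 to 4.87, although these 4 genes were uneven in control too. The part of the ovary list difference between egg arrays in these 4 members was not tested.

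Marker lists for tissues that a head sample can hold or lack differed between groups. In whole tissue, more cells of a type and more RNA per cell cannot be told apart. The array medians of the testis list, 27 genes, ran from 8.19 to 9.08 in control and 7.27 to 7.47 in egg arrays, then 5.17 to 6.01 in double mutant arrays and 4.93 to 5.17 in Su(var)3-9 arrays. The gut list, also 27 genes, ran from 10.42 to 11.03 in control and from 4.94 to 6.83 in the Su(var)3-9 mutant. The accessory gland list of 22 genes ran from 10.70 to 11.23 and from 4.32 to 6.35 in those same groups. Control arrays thus carried the highest levels of these 3 lists, but not of the ovary list. The same gap of 0.5 above the other 9 arrays was met by 1730 probe sets in control (9.22%), by 44 in the egg mutant (0.234%) and by 20 in the double mutant (0.107%). Their part in the members' comparisons with control was not tested. Between the egg and the double mutant the testis medians also lay apart without overlap, and so did those of the gut and the accessory gland.

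The fat body list was the one that stood highest in the Su(var)3-9 mutant without overlap. The fat body is the fly tissue that stores fat and secretes blood proteins, and some of it lies in the head. The median of its 14 genes ran from 12.03 to 12.17 in the Su(var)3-9 arrays, 11.33 to 11.43 in the double mutant, 10.29 to 10.41 in the egg mutant and 9.77 to 10.83 in control. Against control, 8 of the 14 rose in the Su(var)3-9 mutant, where 44.4% of all probe sets were higher and 17.3% lower. The largest rises were those of the larval serum protein receptor Fbp1, by 3.90 ± 0.25 log2, Fbp2, by 3.63 ± 0.29, and the secreted odorant-binding protein Obp99b, by 2.77 ± 0.13. The other 6 were not called, with Yp1 at 0.07, FASN1 at 0.07 and Desat1 at -0.18 among them. The median change of the 14 genes was 0.41 log2, against 0.21 over all probe sets. With cyclic loess between arrays it was 0.22, against -0.002. In the double mutant against the egg mutant, 6 of the 14 rose and 1 fell, where 7.91% of all probe sets were higher and 7.62% lower. The median change of the 14 there was 0.17 log2, against 0.03 over all probe sets. Fbp2 rose by 3.57, Lsp2, a blood storage protein, by 3.40, Obp99b by 3.07 and Fbp1 by 3.02, while fit fell by 0.62. The double mutant came second in this list. The part of the fat body in the members' levels was not tested. The cuticle list, 21 genes, ran from 5.91 to 6.35 in the Su(var)3-9 arrays and overlapped control at 5.73 to 6.32. The neuron list, 21 genes, lay between 10.30 and 10.38 in Su(var)3-9 arrays and between 10.29 and 10.40 in double mutant arrays, with 9.59 to 9.92 in control.

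**Figure D5:**
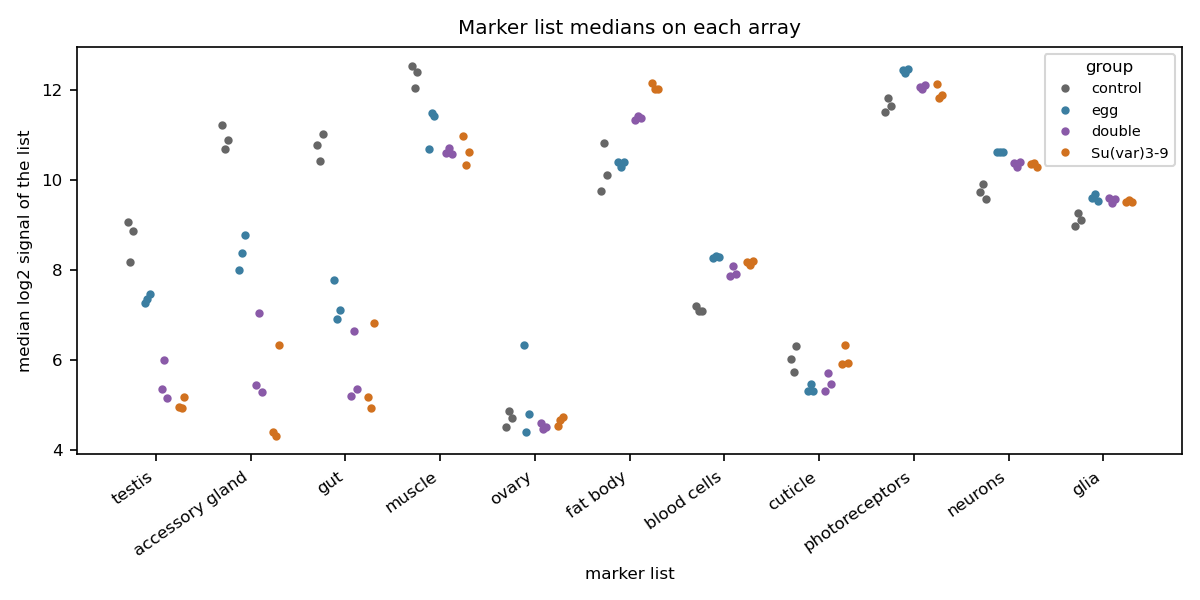
Median log2 signal of each marker list, with 1 point per array, coloured by genotype. Testis, accessory gland, gut and muscle markers are highest in the control arrays, and the fat body list is highest in the Su(var)3-9 arrays, at 12.03 to 12.17.

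A list of H3K9 methylation and heterochromatin genes was also set beside the members. Of 21 measured genes of that list, none met the gap, which is near the share of all probe sets, 0.533%. Against control, 9 rose and 2 fell in the Su(var)3-9 mutant, where 44.4% of all probe sets were higher and 17.3% lower, and the median change, 0.20 log2, was near the 0.21 of all probe sets. JIL-1, a histone H3 kinase, rose by 0.90 ± 0.13, Su(var)3-7, a partner of HP1, by 0.77 ± 0.13 and wde, a cofactor of egg, by 0.52 ± 0.09. Pof, the protein that coats the fourth chromosome, fell by 3.38 ± 0.20 log2 (limma adjusted p 2.35e-08). These genes moved the same way in the egg and double mutants against control, so the changes were not particular to the Su(var)3-9 mutant. Pof changed there by -2.21 and -3.06, JIL-1 by 0.99 and 0.91, Su(var)3-7 by 0.59 and 0.77 and wde by 0.68 and 0.57. With cyclic loess between arrays the split over this list in the Su(var)3-9 mutant turned to 4 higher and 6 lower. Its direction thus depended on the scaling. In the double mutant against the egg mutant 2 fell and 19 were not called.

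The 27 genes were spread over the large chromosome arms, by the names in NCBI RefSeq's annotation of fly genome Release 6. Arm 3R held 9 (33.3%, against 24.4% of all CG genes on the array), 3L held 7 (25.9%, against 20.2%) and 2R held 5 (18.5%, against 19.5%). Arms 2L and X held 3 each (11.1%), against 18.5% and 17.1%. None of the 27 lay on chromosome 4, which held only 13 (0.253%) of all CG genes on the array. The unnamed members were not placed on chromosomes. Su(var)3-9 itself lies on 3R. By gene order there, CG6125 lay 41 genes from Su(var)3-9, CG9616 128, CG8483 285, CG34281 358, CG4115 438, CG7695 501, CG3301 857, CG7031 1112 and CG14642 1708.

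The nearest genes on each side with a probe set were described by their values, with no test. Of 54 such neighbours, 6 had a Su(var)3-9 mean at least 1 log2 above control. The share of all probe sets that did so was not counted. The median of that difference was 0.26, near the 0.21 of all probe sets. The gap, met by 0.533% of all probe sets, was met by 2 neighbours. These are CG1791 and CG1889, each the neighbour of the other, and both are also among the 6. Both are members chosen by that gap, so their count cannot be set against the share of all probe sets. No neighbour outside the members met it. CG8100 lay beside Fbp1, which averaged 5.99 in control, 5.95 in the egg mutant, 8.97 in double mutants and 9.89 in the Su(var)3-9 mutant, with a gap of 0.45. In both genes the double mutant came second, and the control and egg means lay close together. In contrast, CG9624, with 1 gene between it and CG9616, was highest in control. It averaged 8.28 in control, 5.65 in the egg mutant, 4.62 in the double mutant and 4.50 in the Su(var)3-9 mutant. Of the members' other probe sets, the one closest to its partner was that of CG31606, with means of 3.52, 3.80, 3.99 and 4.74 and a gap of 0.499.

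That probe set was the first just outside the rule. The next below 0.5 were CG13678 and 1637658_at at 0.498 each, CG31207 at 0.483 and CG14770 at 0.459. Just inside stood 1637055_s_at, CG14565 and CG1889, at 0.52 each. The Su(var)3-9 means of those outside, from 4.74 to 9.79, fell within the range of the members.

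Among characterised genes, 40 probe sets of 38 genes met the same gap, and 3 more carried several symbols. The widest were be at 2.06, bcd at 1.90 and Obp19a at 1.56. The maternal patterning gene bcd averaged 3.85 in control, 3.87 in the egg mutant, 4.16 in the double mutant and 6.38 in the Su(var)3-9 mutant. Obp19a, an odorant-binding protein, averaged 3.64, 3.86, 4.88 and 6.90 in the same order, and its other probe set met the gap too, at 0.91. Ugt37A3 and Ugt301D1, enzymes that attach sugars to small molecules, had gaps of 1.29 and 0.94. The cuticle proteins Lcp65Ac and Cpr49Ac stood at 1.14 and 1.12, and the serpin Spn47C at 1.14. The remaining genes of the 15 widest were ninaD, a scavenger receptor for carotenoids, at 1.08, Rnf11 at 1.03 and 0.85, the ribosomal pseudogene 18SrRNA-Psi:CR41602 at 1.03, the odorant-binding protein lush at 0.83 and Grik at 0.82. None of these named genes had a gap near those of 1626205_s_at and 1634633_s_at.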

How the data were processed

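RNA from fly heads was hybridised to Affymetrix expression arrays. The authors deposited 1 log2 level for each probe set and array. The submitters' processing notes name RMA and limma, whose versions are not given in the sources used here. As a method, RMA normalises between arrays, so a level is relative to the other transcripts. The file holds 18952 probe sets, of which 183 Affymetrix controls were left out. Of 13 arrays, 12 had values; the repeat array of 1 control RNA was empty, so averaging or exchanging it was not run.

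Members were found in Python 3.11.15 and tested with limma 3.58.1 in R 4.3.3, with 1 mean per genotype, empirical Bayes variances and Benjamini-Hochberg adjustment over all 18769 probe sets. The limma script was tested on simulated data. The members and all lists were chosen with earlier results of these data known, and contrasts with the Su(var)3-9 arrays were not tested for members. The text names the 20 members with the widest gap, called members, the nearest probe sets outside, up to 15 characterised ones, neighbours and, beyond these, CG members described by family or pattern, chosen after their values were seen. Marker genes were matched by symbol or synonym, and 3 entries whose names matched other genes were removed. The file names no genome build, so no coordinates are given.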

Additional observations from a re-analysis of the deposited data

How the results depend on the processing

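With the gap at 0.25, 0.75 and 1 the rule found 132, 37 and 24 members in place of 57. Centring each array on its median gave 69 (56 shared), cyclic loess 48 (47 shared), leaving out dim probe sets 43, and leaving out 1 array 57 to 76. Members called ranged over arrays left out from 19 to 29 (26 with all) in the egg mutant against control. In the double mutant they ranged from 24 to 33 (30) against control and from 22 to 27 (26) against the egg mutant. Over all probe sets the calls ranged from 8685 to 9648, 9465 to 11041 and 2004 to 3472 in these comparisons. Centring raised the double mutant against control to 51, 49 of them higher. The median change of all probe sets then moved from 0.18 to 0.54 log2. A call that also needs a 1.5-fold change left 16 in the egg mutant and 18 in the double mutant against control. In the egg mutant against control the split of 17 higher and 9 lower became 31 and 6 with centring and 11 and 20 with cyclic loess. The split over all probe sets moved alike, from 6000 and 3550 to 11087 and 2709 and to 3153 and 5194. In the double mutant against control, 26 and 4 became 16 and 8 with cyclic loess, while 7589 and 3238 over all probe sets became 2988 and 5016. In the double against the egg mutant, 25 and 1 became 29 higher with centring, and 24 and 3 with cyclic loess, and 1485 and 1430 over all became 3765 and 980, and 1318 and 1663. Over all probe sets, calls in the double mutant against control went from 10827 to 17151 with centring and 4728 at 1.5-fold. In the egg mutant against control they went from 9550 to 4931 at 1.5-fold, and in the double against the egg mutant from 2915 to 4745 and 1297. Direction turned for 4 called changes, all in the double mutant against control: with cyclic loess 1631874_at at -0.017, CG7695 at -0.072 and 1624543_s_at at -0.025, and with centring 1623960_s_at at 0.12. The cause was not tested. Of the other settings of 82 called changes, 1421 kept the call and 125 lost it.

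Replicate numbers did not pair the samples: over 18 same-number pairs the correlation of deviations from group means ran from -0.36 to 0.101, with 1 pair over 0.1. With replicate number as a block (replicate block), 24 members were called in the egg mutant against control. In the double mutant 30 were called against control and 25 against the egg mutant. Over all probe sets the block fit called 9318, 10502 and 2542 in these comparisons. With only the 2 groups compared in each fit, 26, 30 and 28 were called. Those fits called 9197, 9813 and 3593 over all probe sets. The limit here is 3 arrays a group and dim signals: 22 members averaged below 5 outside the Su(var)3-9 arrays.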
